A study of Mus musculus with 6 samples.

Results

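The ENPP genes encode ectonucleotide pyrophosphatase/phosphodiesterase enzymes, and 5 of them, Enpp1 to Enpp5, were followed by gene name through the 23449 genes of the deposited table. All 5 had a row and all 5 passed the filter on low counts. RNA was sequenced from 6 cultured mouse mammary lines of the FVB/N strain, from females. The lines labelled EIC (genotype EIC/WT) were EIC_4026, EIC_NT and EIC_7559, and the lines labelled 16IC (genotype 16IC/WT) were 16IC_1984, 16IC_4982 and 16IC_7391. All 6 lines grew with 10 ug/mL doxycycline, and the medium of both groups held 10% serum together with insulin, EGF and an extract of pituitary. As background on the study rather than from the sample labels, doxycycline turns on an ErbB2 transgene in EIC cells and the HER2 form lacking exon 16 in 16IC cells. The labels give neither the promoter behind each transgene nor whether lines come from separate animals or clones. No line without doxycycline was analysed, so the receptor form and any other difference between the lines cannot be told apart, and p-values measure only the spread between these 6 samples.

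The ENPP enzymes sit on the outer face of the plasma membrane or are released from cells, and they cut phosphodiester or pyrophosphate bonds. ENPP1 turns extracellular ATP into AMP and pyrophosphate, restrains mineral deposition, and breaks down cGAMP, the messenger that activates STING; ENPP3 shares much of this substrate range. ENPP2, also called autotaxin, is secreted and makes the lipid mediator lysophosphatidic acid (LPA) from lysophosphatidylcholine, which acts on receptors encoded by the Lpar genes. ENPP4 cleaves diadenosine polyphosphates, and ENPP5 is the least characterised of these 5 enzymes.

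On GRCm38/mm10 the family occupied 3 places. Enpp1 (ENSMUSG00000037370, chromosome 10, 24637914 to 24712159) and Enpp3 (ENSMUSG00000019989, chromosome 10, 24772406 to 24842823) lay on the minus strand, with 60.3 kb between them. Enpp4 (ENSMUSG00000023961, chromosome 17, 44096308 to 44105809, minus strand) and Enpp5 (ENSMUSG00000023960, chromosome 17, 44078813 to 44086567, plus strand) were also neighbours, their 3′ ends facing each other across 9.74 kb. Enpp2 (ENSMUSG00000022425, chromosome 15, 54838901 to 54952892, minus strand) stood alone. In the GENCODE M21 annotation the longest coding transcripts of Enpp1, Enpp2 and Enpp3 each had 25 exons, whereas those of Enpp4 and Enpp5 each had 4. No run of 31 bases was shared between annotated transcripts of any 2 of the 5 genes, so the family members are not near-identical copies. The 5′-most 823 bases of Enpp2 overlap the opposite-strand noncoding gene Gm26684, and reads there could not be assigned to a strand because the strandedness of the counting is not given.

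RefSeq promoter sequences (GRCm38.p6, from 250 bases before to 50 bases after the start) matched 3 of the 5 members, Enpp1, Enpp3 and Enpp4, and they are shown because adjacent Enpp1 and Enpp3, and Enpp4 on chromosome 17, had unlike patterns over the lines. All are given 5′ to 3′ on the minus strand, with each CpG dinucleotide in capitals.
Enpp1: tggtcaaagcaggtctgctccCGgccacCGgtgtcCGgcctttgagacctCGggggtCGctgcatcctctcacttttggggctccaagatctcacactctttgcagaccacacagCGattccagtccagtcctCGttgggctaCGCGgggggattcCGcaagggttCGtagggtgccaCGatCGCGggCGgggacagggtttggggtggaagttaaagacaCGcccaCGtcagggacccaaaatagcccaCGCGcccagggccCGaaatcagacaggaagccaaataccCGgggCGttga
Enpp3: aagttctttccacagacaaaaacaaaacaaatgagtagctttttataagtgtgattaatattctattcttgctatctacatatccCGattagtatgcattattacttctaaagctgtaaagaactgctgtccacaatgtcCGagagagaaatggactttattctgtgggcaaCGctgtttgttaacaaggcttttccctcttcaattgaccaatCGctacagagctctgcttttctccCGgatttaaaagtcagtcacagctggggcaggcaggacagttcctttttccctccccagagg
Enpp4: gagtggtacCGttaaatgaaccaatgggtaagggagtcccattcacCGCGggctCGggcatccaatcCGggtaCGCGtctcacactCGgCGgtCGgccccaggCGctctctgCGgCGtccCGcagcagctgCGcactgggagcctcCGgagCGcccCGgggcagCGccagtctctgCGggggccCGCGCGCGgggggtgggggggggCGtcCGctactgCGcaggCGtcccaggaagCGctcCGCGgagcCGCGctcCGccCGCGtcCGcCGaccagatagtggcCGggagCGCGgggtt
The Enpp1 sequence (chr10:24712110-24712409) held 22 CpG, a number reached by 23.1% of the 32851 promoters of that table. The Enpp3 sequence (chr10:24836146-24836445) held 5, below the median of 7, and its start lies inside the annotated Enpp3 gene rather than at its outermost end. The Enpp4 sequence (chr17:44105760-44106059) held 41, reached by 3.46% of promoters. These letters are those of the C57BL/6J reference, not of FVB/N, and no methylation or binding was measured.

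Library totals ran from 15621563 to 17468498 counts. Levels are given as CPM, a gene's count scaled to a common library size after TMM normalisation. The line 16IC_7391 was no more like the other 16IC lines (Spearman 0.874 and 0.880 across tested genes, not across replicates) than lines of opposite groups were like each other (0.841 to 0.885). Values without 16IC_7391 are therefore printed beside each member's result. The most alike pair, 16IC_1984 and 16IC_4982 (Spearman 0.989), still differed beyond counting noise, with a chi-square of 19.5 per gene where 1 is the value for sampling alone. Every other pair had a larger chi-square, from 51.3 to 290.7. These values do not show whether 16IC_1984 and 16IC_4982 come from separate animals or clones. Of the mammary epithelial markers, Krt8 had 580 to 2652 CPM and Krt18 563 to 1999 CPM in all 6 lines, but Epcam had 0.456, 1.08 and 3.79 CPM in EIC_4026, EIC_NT and EIC_7559, and of the 6 basal markers Krt5 had at most 0.0612 CPM in any line. Another basal keratin gene, Krt14, had at most 0.120 CPM in EIC and 13.1, 1.28 and 1.10 CPM in 16IC_1984, 16IC_4982 and 16IC_7391 (edgeR adjusted p = 0.0748, DESeq2 0.000168), and the basal transcription factor gene Trp63 had 11.5 CPM in EIC_NT and at most 0.519 CPM elsewhere. The 6 summed to 0.249 to 11.6 CPM in EIC and 1.59 to 16.4 CPM in 16IC. The leukocyte gene Ptprc had at most 0.306 CPM, and Cdh5 of endothelial cells at most 0.0622 CPM, whereas the endothelial receptor gene Kdr had 3.76 and 1.43 CPM in EIC_4026 and EIC_7559 and at most 0.389 CPM elsewhere. In such bulk samples fewer cells of a type and less RNA per cell cannot be told apart.

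Across the family, 2 members differed widely between the groups in opposite directions, Enpp1 higher and Enpp2 lower in 16IC, while Enpp3 was barely present and Enpp4 and Enpp5 were well expressed in every line. None of the 5 passed edgeR's quasi-likelihood test (adjusted p from 0.0899 to 0.979), in a comparison that called 2.45% of all genes tested (1.25% higher and 1.2% lower in 16IC). At an unadjusted p under 0.05 there were 2, Enpp1 and Enpp2, against 22.7% of all genes. DESeq2 called Enpp1 higher and Enpp2 lower, against a background of 15.3% of genes (8.27% higher, 7.04% lower). Limma-voom called 0 of the 5, against 2.1% (1.04% higher, 1.06% lower). The authors' deposited table also has 2 members at an adjusted p under 0.05, Enpp1 and Enpp2, among 8.63% of its genes. That share is over all 23449 genes, whereas the others are over the 13698 that passed the filter on low counts.

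**Figure D1:**
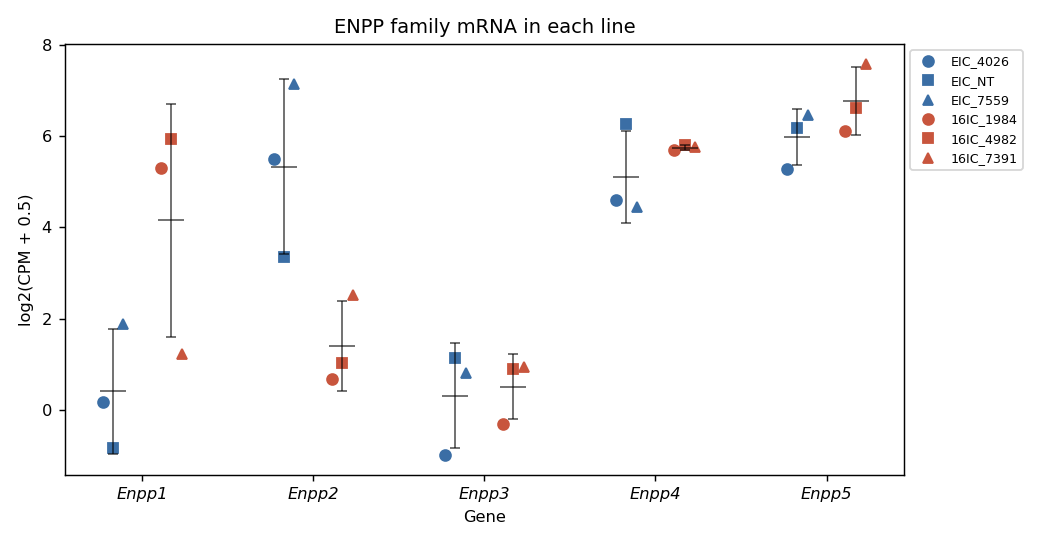
Level of each ENPP gene as log2(CPM + 0.5) on the vertical axis, with blue symbols for EIC lines, red symbols for 16IC lines, and bars for mean ± SD over 3 lines. Enpp1 in 16IC_7391 (red triangle, 1.82 CPM) falls among the EIC lines, all 3 EIC lines lie above all 3 16IC lines for Enpp2, and the 16IC values of Enpp4 nearly coincide.

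Enpp1 was the most variable member. It had 0.627, 0.0602 and 3.17 CPM in EIC_4026, EIC_NT and EIC_7559, from 11, 1 and 51 counts. It had 38.9, 61.1 and 1.82 CPM in 16IC_1984, 16IC_4982 and 16IC_7391, from 645, 999 and 28 counts. Both high lines were thus 16IC lines, and 16IC_7391 was low and lay inside the EIC range. In 8 of the 9 pairings of a 16IC line with an EIC line the 16IC line was higher, the exception being 16IC_7391 against EIC_7559. The exact Poisson 95% intervals of those 2 lines, 1.21 to 2.63 and 2.36 to 4.17 CPM, cover counting error only. The 16IC mean was 33.9 ± 29.96 CPM, against an EIC mean of 1.29 ± 1.66 CPM (SD, n = 3 each). The fitted log2 fold change was 4.72 (SE 1.62, 95% interval 0.80 to 8.64, edgeR adjusted p = 0.157). Without 16IC_7391 it was 5.28 and edgeR called it (adjusted p = 0.0471), in a fit that called 13.4% of all genes (6.6% higher, 6.82% lower). The range of Enpp1 over the 6 lines, as the ratio of highest to lowest CPM after adding 0.5, was 110.0, larger than in 98.6% of tested genes, whose median was 2.32.

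Enpp3, the nearest relative by position, did not follow Enpp1. Its counts were 0, 28 and 20 in EIC_4026, EIC_NT and EIC_7559 and 5, 22 and 22 in 16IC_1984, 16IC_4982 and 16IC_7391. These correspond to 0 to 1.68 CPM in EIC and 0.301 to 1.43 CPM in 16IC, and the groups overlapped. The 0 in EIC_4026 allows a level of up to 0.171 CPM, taken as 3 counts, or 0.210 CPM as the upper bound of the exact Poisson 95% interval. The highest line for Enpp3, EIC_NT, was the lowest for Enpp1. Over the 6 lines Pearson's r between log2(CPM + 0.5) of Enpp1 and Enpp3 was -0.039, a description of 6 points. The log2 fold change of Enpp3 was 0.07 with a 95% interval from -2.92 to 3.07 (SE 1.24, edgeR adjusted p = 0.979), so differences of several fold in either direction lie inside the interval. Without 16IC_7391 the value was -0.24 (edgeR adjusted p = 0.934), and leaving out EIC_4026 or 16IC_4982 also turned its sign. Markers of basophils and mast cells, in which ENPP3 is a known surface antigen, were mostly low: Ms4a2 had at most 0.181 CPM, whereas Mcpt8 had 6.99 and 10.2 CPM in 16IC_1984 and 16IC_4982, 9.58 and 9.95 CPM in EIC_4026 and EIC_7559, and at most 0.0649 CPM in the other lines. Gata2, of the same list, had 0.0570 to 1.62 CPM in EIC and 0 to 1.96 CPM in 16IC. The summed level of the 3 markers with a row was 1.74 to 10.4 CPM in EIC and 0.0649 to 12.1 CPM in 16IC, and its part in the Enpp3 values was not tested.

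Enpp2 ran the other way. It had 45.0, 9.62 and 142 CPM in EIC_4026, EIC_NT and EIC_7559, and 1.08, 1.53 and 5.25 CPM in 16IC_1984, 16IC_4982 and 16IC_7391. Every EIC line was above every 16IC line, the one member whose groups did not overlap, as was so for 31.4% of all tested genes (17.2% higher in 16IC, 14.2% lower). EIC_NT was the lowest of its group and 16IC_7391 the highest of its own, so these 2 lines came nearest to each other. The EIC mean was 65.5 ± 68.5 CPM, and that of 16IC was 2.62 ± 2.29 CPM (SD, n = 3 each). The log2 fold change was -4.64 (SE 1.17, 95% interval -7.47 to -1.82, edgeR adjusted p = 0.0899). It was -5.64 without 16IC_7391 (edgeR adjusted p = 0.0528) and -3.39 without EIC_7559 (0.229). The interval is for 1 gene and is not adjusted for the number of genes tested.

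Enpp4 varied least within 16IC of the 5 members, and more among the EIC lines (SD of log2(CPM + 0.5) 0.0478 and 1.02). It had 51.6, 55.2 and 53.5 CPM in 16IC_1984, 16IC_4982 and 16IC_7391, a mean of 53.4 ± 1.79 CPM (SD, n = 3), with 16IC_7391 between the other two. EIC_4026 and EIC_7559 had 23.7 and 21.5 CPM, below all 16IC lines, and EIC_NT had 77.2 CPM, above all of them. With all lines the log2 fold change was 0.39 (SE 0.51, 95% interval -0.86 to 1.64, edgeR adjusted p = 0.702), and without 16IC_7391 it was 0.39 as well (0.719). Without EIC_NT the remaining EIC lines averaged 22.6 CPM, the log2 fold change was 1.24 (SE 0.18), and edgeR called Enpp4 higher in 16IC (adjusted p = 0.0484). That fit called 1.96% of all genes (0.869% higher, 1.09% lower), and it rests on 2 EIC lines. The labels do not say what NT stands for.

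Enpp5 had the highest mean per kilobase in both groups, 13.6 CPM per kb in EIC and 24.7 in 16IC. It had 38.6, 71.7 and 88.2 CPM in EIC_4026, EIC_NT and EIC_7559 and 68.8, 98.1 and 193 CPM in 16IC_1984, 16IC_4982 and 16IC_7391. The groups overlapped, with 16IC above EIC in 7 of 9 pairings, and 16IC_7391 stood alone at the top. The log2 fold change of 0.86 (SE 0.47, 95% interval -0.28 to 1.997, edgeR adjusted p = 0.336) became 0.33 without 16IC_7391 (0.614). Although Enpp4 and Enpp5 adjoin, their lines were ordered differently, with EIC_NT first for Enpp4 and 16IC_7391 first for Enpp5, and r between them was 0.383 over the 6 lines.

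**Figure D2:**
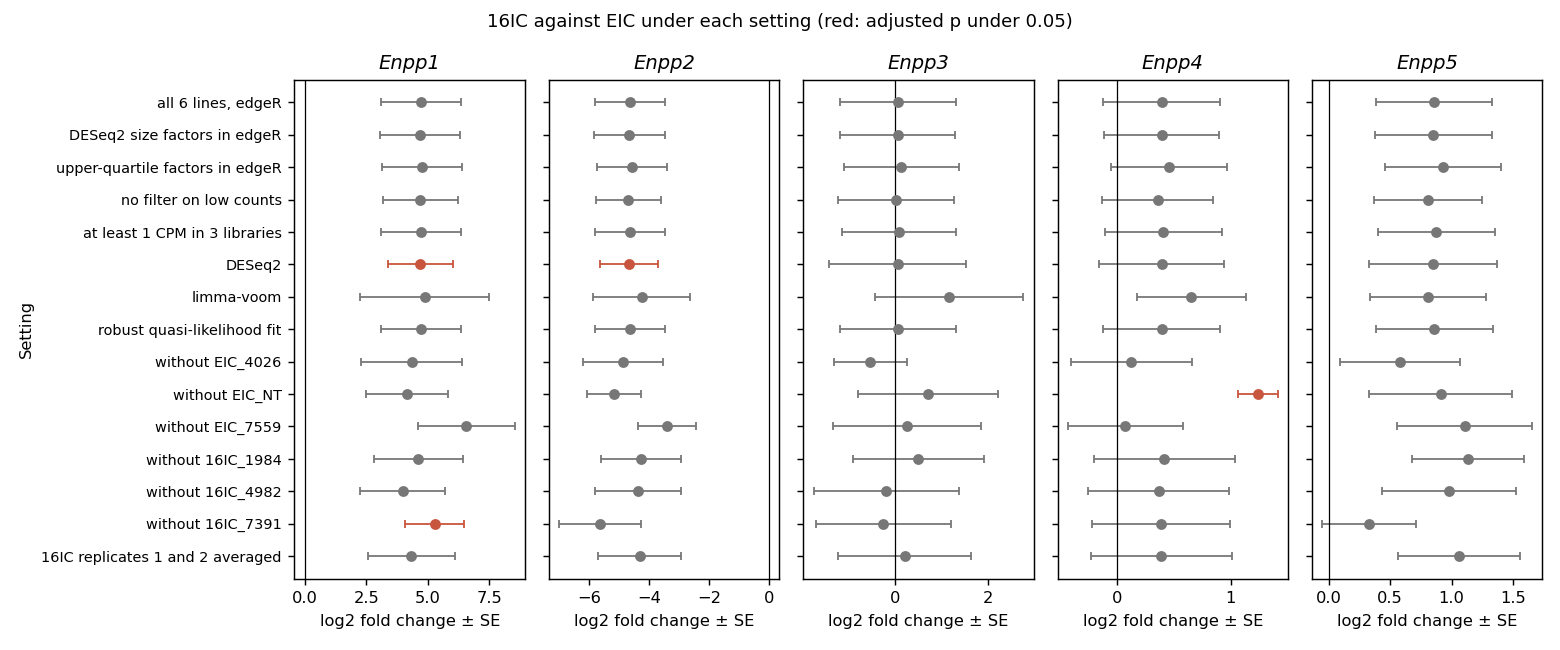
Log2 fold change of 16IC over EIC (horizontal axis, ± SE) for each ENPP gene under each setting (vertical axis), with points at an edgeR, DESeq2 or limma-voom adjusted p under 0.05 in red. Enpp1 and Enpp2 kept their sign in all settings shown, Enpp4 reached 1.24 only without EIC_NT, and Enpp3 crossed 0.

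Levels of different genes were compared per kilobase of the gene length in the deposited table. That length was 4858 bases for Enpp5 and 4560 for Enpp4, while their longest coding transcripts in GENCODE M21 had 2534 and 4560. Ratios and shares between genes, and the order of Enpp4 and Enpp5 in EIC_NT, depend on which length is used. On this scale Enpp4 and Enpp5 together made up 47.7% to 97.5% of the summed level of the 5 genes. The share of Enpp1 was 12.8% in 16IC_1984 and 15.4% in 16IC_4982, and at most 0.645% in each other line. The share of Enpp2 was 37.1%, 4.95% and 51.2% in EIC_4026, EIC_NT and EIC_7559, and 0.636%, 0.683% and 1.72% in 16IC_1984, 16IC_4982 and 16IC_7391. The autotaxin gene was therefore the leading member in EIC_7559 and a minor one in every 16IC line. In 16IC_1984 and 16IC_4982 the per-kilobase level of Enpp1 was 20.2 and 22.5 times that of Enpp2. In 16IC_7391 the order was turned, with Enpp2 at 5.13 times Enpp1, as in all 3 EIC lines. The ratio of Enpp2 to Enpp1 was 127 in EIC_4026 and 79.5 in EIC_7559, and in EIC_NT it rests on 1 Enpp1 count. Enpp5 exceeded Enpp4 per kilobase in 5 lines, by 1.25 to 3.86 times, and in EIC_NT it was at 0.872 of Enpp4. The summed level itself ran from 21.0 to 47.95 CPM per kb in EIC and from 29.5 to 52.8 in 16IC, ranges that overlapped.

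**Figure D3:**
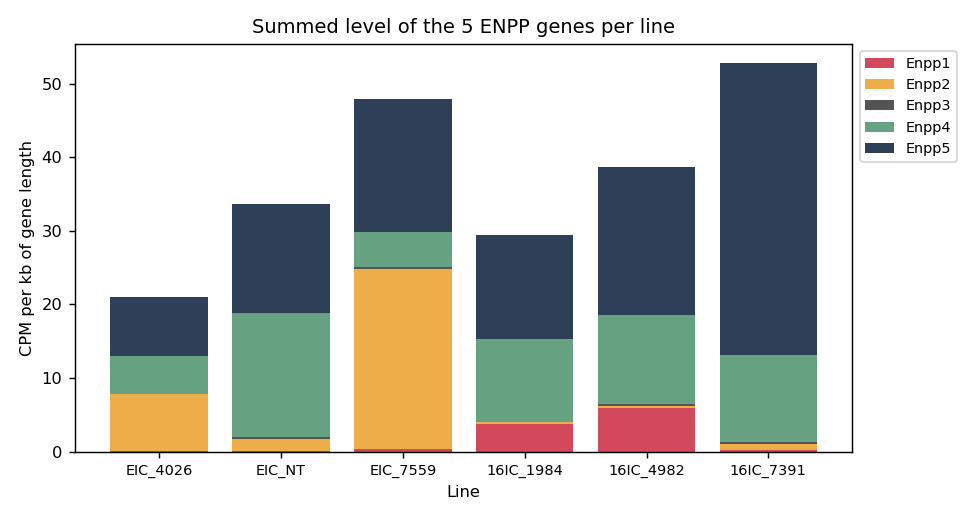
Stacked bars of the 5 ENPP genes in each line, in CPM per kb of gene length, starting at 0. Enpp1 (red) is a wide band in 16IC_1984 and 16IC_4982 alone, Enpp2 (yellow) mainly in EIC_4026 and EIC_7559, and Enpp5 (dark blue) takes 75.3% of the total in 16IC_7391.

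Some cell type markers differed between lines as Enpp1 or Enpp2 did, and others of the same lists did not. Epcam, an epithelial adhesion gene, had 1160 and 1345 CPM in 16IC_1984 and 16IC_4982 and 51.1 CPM in 16IC_7391, so that it was high in the lines with much Enpp1 (log2 fold change 8.91, SE 1.63, edgeR adjusted p = 0.0517). Elf5, a transcription factor of the secretory lineage, had 41.5, 63.0 and 2.79 CPM in the same 3 lines and 3 counts over the EIC lines, and edgeR called it (adjusted p = 0.0462), a call that limma-voom did not make (0.183). The Elf5 call was also lost when any line but 16IC_7391 was left out (edgeR adjusted p from 0.0857 to 0.172) and when 16IC_1984 and 16IC_4982 were averaged (0.166). Over all genes those fits called 0 without EIC_4026, EIC_7559 or 16IC_4982, 5 without 16IC_1984, 282 without EIC_NT and 0 with the average. The loss is therefore not particular to Elf5. With all lines Elf5 was the 1 of 7 luminal markers that edgeR called, against the 2.45% of all genes. DESeq2 called 3, Epcam, Cdh1 and Elf5, all higher in 16IC, against 15.3%, and limma-voom called 0, against 2.1%. DESeq2 gave no adjusted p for Krt19, which is counted as not called. Cdh1 had 88.7, 307.4 and 56.4 CPM in EIC_4026, EIC_NT and EIC_7559. In 16IC_1984, 16IC_4982 and 16IC_7391 it had 1053.5, 993.5 and 270.6 CPM, with overlapping groups (edgeR adjusted p = 0.159). The summed luminal level was 2519 to 3120 CPM in EIC and 1484 to 6845 CPM in 16IC, lowest in 16IC_7391. Krt19 was the 1 of the 7 luminal markers that was lower in 16IC, and its groups did not overlap. It had 7.7, 197.6 and 10.1 CPM in EIC_4026, EIC_NT and EIC_7559. Krt19 was at 0 in 16IC_1984 and 16IC_4982 and had 0.649 CPM in 16IC_7391 (log2 fold change -8.36, edgeR adjusted p = 0.0899). Of the mesenchymal markers, Vim, encoding vimentin, had 2684 to 4398 CPM in EIC, 107.5 and 182.4 CPM in 16IC_1984 and 16IC_4982 and 2099 CPM in 16IC_7391 (log2 fold change -2.18, edgeR adjusted p = 0.314). Without 16IC_7391 the value was -4.64 and edgeR called Vim lower (adjusted p = 0.00691), in the fit that called 13.4% of all genes. Of 5 tested fibroblast and mesenchymal markers edgeR and limma-voom called 0 with all lines, against 2.45% and 2.1% of all genes. Before adjustment 1 was below 0.05, against 22.7%, and DESeq2 called 2, Col1a1 higher and Pdgfra lower, against 15.3%. DESeq2 gave no adjusted p for Pdgfrb, which is counted as not called. The collagen gene Col1a1 had 0.513 to 1.99 CPM in EIC and 3.13 to 4.995 CPM in 16IC, opposite to Vim. The summed level of the 6 markers with a row was 2774 to 4409 CPM in EIC and 115 to 2126 CPM in 16IC, and Dcn was at 0 in 16IC_1984 and 16IC_4982. Pdgfra, a receptor gene of mesenchymal cells, had 87.8, 1.99 and 99.97 CPM in EIC_4026, EIC_NT and EIC_7559, low in the EIC line that was also lowest for Enpp2, and 4.04 to 15.4 CPM in 16IC. Fabp4, one of 2 adipocyte markers with a row, had 22.1, 0.241 and 42.1 CPM in EIC_4026, EIC_NT and EIC_7559 and at most 1.88 CPM in 16IC (log2 fold change -4.65, edgeR adjusted p = 0.176). The other adipocyte marker, Cidec, had at most 0.114 CPM. Csf1r, a myeloid receptor gene, had 3.73 and 4.65 CPM in 16IC_1984 and 16IC_4982 and at most 0.241 CPM elsewhere, and the 4 leukocyte markers with a row summed to 0.0622 to 0.301 CPM in EIC and 0.0649 to 5.08 CPM in 16IC. The part of these markers in the Enpp1 and Enpp2 values was not tested. Of the bone-forming lineage, Runx2 had 27.7 to 55.5 CPM and Sp7 at most 0.0612 CPM.

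The genes whose line pattern was nearest to each member were taken by Pearson's r of log2(CPM + 0.5) over the 6 lines, among named genes with a mean of at least 5 CPM (10313 of them, and 10314 for Enpp3). For Enpp1 these were Pcyt1b, a phosphatidylcholine synthesis gene (r = 0.997), the transcription factor gene Tcf7 (0.996) and the epithelial transcription factor gene Elf3 (0.992). Tcf7 had 4.93 to 9.70 CPM in EIC, 32.9 and 38.9 CPM in 16IC_1984 and 16IC_4982, and 8.89 CPM in 16IC_7391, the same placing of 16IC_7391 beside the EIC lines. For Enpp2 they were the sulfite oxidase gene Suox (0.997), Tmem163 (0.994) and Ccdc107 (0.994). Suox had 57.6, 22.2 and 94.9 CPM in EIC_4026, EIC_NT and EIC_7559 and 6.57, 6.55 and 14.7 CPM in 16IC_1984, 16IC_4982 and 16IC_7391, so it shared both the low EIC_NT and the raised 16IC_7391. The nearest genes were Pias4, Fam234b and Alcam for Enpp3 (0.972, 0.967 and 0.956), Ttc13, Cog1 and Cstf2t for Enpp4 (0.996, 0.994 and 0.992), and Sirt2, Dennd1b and Brox for Enpp5 (0.986, 0.984 and 0.984). With 6 points and so many genes, values this high are to be read as a description only.

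Genes beside Enpp1 and Enpp2 on the chromosome also differed between the lines. Within 250 kb of a member lay 10 protein-coding genes outside the family, of which 8 could be tested. EdgeR called 0 of them (adjusted p from 0.0590 to 0.770), although 6 had an unadjusted p below 0.05, against 22.7% of all genes. DESeq2 called 6 (15.3% of all genes) and limma-voom 0 (2.1%), and without 16IC_7391 edgeR called 5 (13.4%). The groups did not overlap for 6 of the 8, against 31.4% of all genes. Near Enpp1, Ctgf, encoding a matrix-associated growth regulator, had 301, 83.9 and 126 CPM in EIC_4026, EIC_NT and EIC_7559 and 693, 1166 and 334 CPM in 16IC_1984, 16IC_4982 and 16IC_7391 (log2 fold change 2.10, SE 0.65, edgeR adjusted p = 0.129). It lies 39.2 kb beyond the 3′ end of Enpp1. On the far side of Enpp3, Arg1, the arginase gene, had 52.5, 42.5 and 1.10 CPM in 16IC_1984, 16IC_4982 and 16IC_7391 and at most 0.241 CPM in EIC, low in the same 16IC line as Enpp1 (edgeR adjusted p = 0.0676). Med23, a Mediator subunit gene between Enpp3 and Arg1, had 36.0 to 41.8 CPM in EIC and 51.2 to 66.4 CPM in 16IC (log2 fold change 0.59, edgeR adjusted p = 0.124). Enpp3, in the middle of these genes, was the one tested gene of the stretch whose groups overlapped other than Enpp1.

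Around Enpp2, Nov, a matrix-associated signalling gene 84.9 kb beyond its 3′ end, had 30.7, 23.0 and 72.4 CPM in EIC_4026, EIC_NT and EIC_7559 and at most 1.04 CPM in 16IC (log2 fold change -6.80, SE 1.34, edgeR adjusted p = 0.0590). Deptor, an inhibitor of mTOR, lay 159 kb on the other side and had 166, 67.2 and 267 CPM in the same EIC lines. In 16IC_1984, 16IC_4982 and 16IC_7391 it had 2.17, 3.79 and 21.5 CPM, the line order of Enpp2 itself (log2 fold change -4.19, SE 1.04, edgeR adjusted p = 0.0884). Between Enpp2 and Deptor, Taf2, a general transcription factor gene, was nearly level at 47.2 to 61.5 CPM in all 6 lines (log2 fold change -0.12, SE 0.17, edgeR adjusted p = 0.722). Dscc1, a gene of sister chromatid cohesion between Taf2 and Deptor, had 1.62 to 6.74 CPM in EIC and 0.973 to 4.88 CPM in 16IC, with overlapping groups (log2 fold change -0.44, edgeR adjusted p = 0.770). Mal2, beyond Nov, had 67.8 and 59.8 CPM in 16IC_1984 and 16IC_4982, 0.778 CPM in 16IC_7391 and 0 counts in EIC. Its log2 fold change of 12.5 (SE 2.82, edgeR adjusted p = 0.106) rests on those 0 counts. The 2 high lines were those of Enpp1, but 16IC_7391 was above every EIC line for Mal2 and inside the EIC range for Enpp1. Near Enpp4 and Enpp5, Rcan2 had at most 1.24 CPM and Clic5 at most 0.454 CPM, and neither could be tested.

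**Figure D4:**
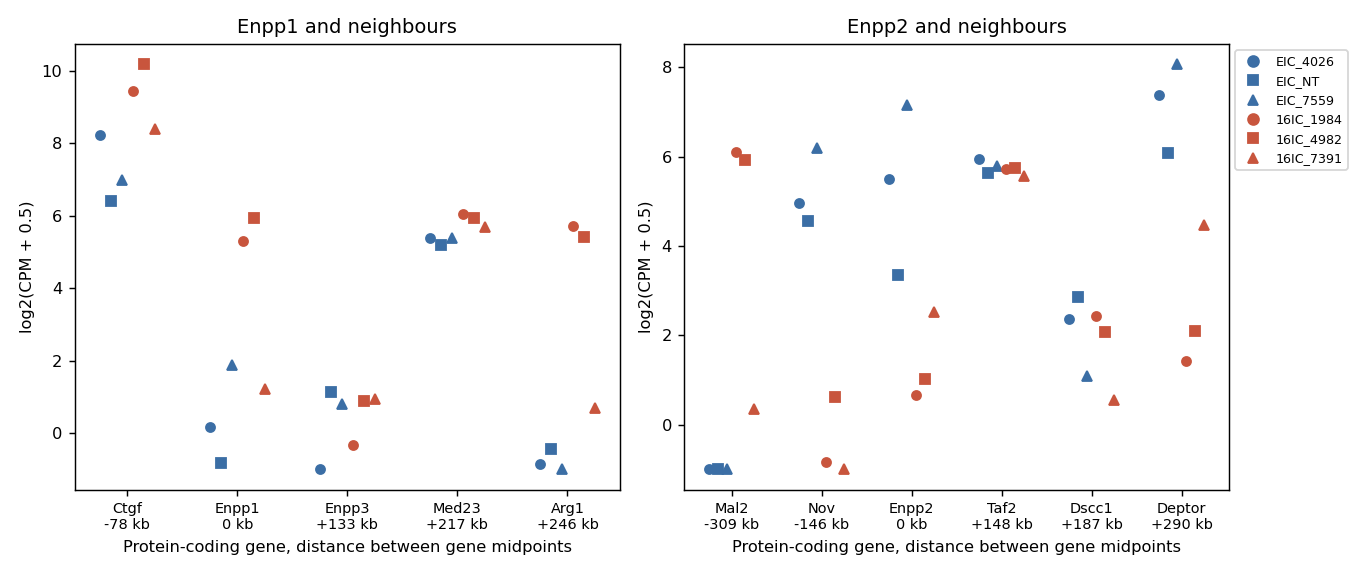
Levels as log2(CPM + 0.5) of protein-coding genes within 250 kb of Enpp1 (left) and Enpp2 (right), placed in chromosome order with the distance between gene midpoints under each name, blue for EIC lines and red for 16IC lines. Arg1 repeats the low 16IC_7391 of Enpp1, Nov and Deptor are higher in EIC as Enpp2 is, and Taf2 stays near one level.

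Genes that act on the substrates and products of the ENPP enzymes were read from 5 lists, and edgeR called 0 genes in each, against the 2.45% of all genes tested. For the other counts given with each list, the shares over all genes were 22.7% at an unadjusted p under 0.05, 15.3% with DESeq2, 2.1% with limma-voom and 13.4% with edgeR without 16IC_7391. In the LPA list, receptors and the phosphatases that remove LPA, 6 genes were tested, with a median log2 fold change of 0.20 against -0.0044 over all genes, and 1 had an unadjusted p under 0.05 (DESeq2 called 1, limma-voom 0). That gene was the receptor gene Lpar6, with 2.80, 6.08 and 2.18 CPM in EIC_4026, EIC_NT and EIC_7559 and 9.88, 12.97 and 10.4 CPM in 16IC_1984, 16IC_4982 and 16IC_7391 (log2 fold change 1.59, SE 0.46, edgeR adjusted p = 0.117). Its groups did not overlap, so the receptor was higher where Enpp2 was lower. Lpar1, the first described LPA receptor, had 8.73, 0.842 and 13.2 CPM in EIC_4026, EIC_NT and EIC_7559 and 0.120, 0.367 and 2.79 CPM in 16IC_1984, 16IC_4982 and 16IC_7391, the same order of lines as Enpp2 within each group (edgeR adjusted p = 0.288). Plpp3, a phosphatase acting on LPA, had 11.4 to 34.6 CPM in EIC and 0.663 to 9.54 CPM in 16IC (log2 fold change -2.33, edgeR adjusted p = 0.223). Without 16IC_7391 edgeR called 2 of the list, Plpp2 higher and Plpp3 lower, in the fit that called 13.4% of all genes.

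In the pyrophosphate and phosphate list, 7 genes were tested, 1 had an unadjusted p under 0.05 (DESeq2 called 1, limma-voom 0), and the median log2 fold change was 0.32. DESeq2 gave no adjusted p for Alpl, which is counted as not called. Spp1, the osteopontin gene, was the abundant one, with 13128, 9304 and 15792 CPM in EIC_4026, EIC_NT and EIC_7559 and 1093, 1720 and 4089 CPM in 16IC_1984, 16IC_4982 and 16IC_7391 (log2 fold change -2.47, SE 0.60, edgeR adjusted p = 0.0849). Ank, which carries pyrophosphate precursor out of the cell and so acts beside ENPP1, had 761 to 810 CPM in EIC and 127, 194 and 621 CPM in 16IC_1984, 16IC_4982 and 16IC_7391 (log2 fold change -1.34, SE 0.59, edgeR adjusted p = 0.248). Both were lowest in the 2 lines with high Enpp1. Phospho1, a phosphatase gene of mineralising cells, stayed at or under 1.87 CPM. Alpl, the phosphatase that removes pyrophosphate, had 285 CPM in 16IC_7391, 0 counts in 16IC_1984 and 16IC_4982, and 6.96 to 9.26 CPM in EIC. It was thus high in the 16IC line with little Enpp1 and undetected in the 2 lines with much of it. Without 16IC_7391 edgeR called 5 of the list, Slc20a1 and Nt5e higher and Ank, Spp1 and Alpl lower, where the shares over all genes were 6.6% higher and 6.82% lower.

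In the cGAMP list 10 genes were tested, 1 had an unadjusted p under 0.05 (DESeq2 called 1, limma-voom 0), and the median was 0.33. Tmem173, the STING gene, had 25.9 to 55.2 CPM in EIC and 50.5 to 54.1 CPM in 16IC, and Mb21d1, the cGAS gene, 10.8 to 20.9 CPM in EIC and 6.29 to 17.3 CPM in 16IC, both with overlapping groups. Smpdl3a, another cGAMP-cleaving phosphodiesterase, had 0.399, 2.65 and 0.249 CPM in EIC_4026, EIC_NT and EIC_7559 and 3.49, 6.91 and 20.3 CPM in 16IC_1984, 16IC_4982 and 16IC_7391 (log2 fold change 3.21, SE 1.12, edgeR adjusted p = 0.163). It was highest in 16IC_7391, where Enpp1 was low. Among the channel subunits that pass cGAMP, Lrrc8c had 67.0 to 122 CPM in EIC and 208, 267 and 83.6 CPM in 16IC_1984, 16IC_4982 and 16IC_7391 (log2 fold change 0.98, edgeR adjusted p = 0.266), and Lrrc8e had 1.43 to 6.68 CPM in EIC and 6.81 to 12.6 CPM in 16IC (1.51, 0.253). Without 16IC_7391 edgeR called 2, Lrrc8b and Lrrc8c, both higher.

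Of the 4 tested genes for other ecto-nucleotidases, 0 had an unadjusted p under 0.05 and DESeq2 and limma-voom called 0. DESeq2 gave no adjusted p for Alpl, which is counted as not called. Without 16IC_7391 edgeR called Nt5e higher (adjusted p = 0.0408) and Alpl lower (0.00749), in the fit that called 13.4% of all genes. Both genes are also in the pyrophosphate and phosphate list. Nt5e, encoding CD73, which turns AMP into adenosine, had 160 to 175 CPM in EIC, 263 and 378 CPM in 16IC_1984 and 16IC_4982, and 23.2 CPM in 16IC_7391. Entpd3, an ATP-hydrolysing enzyme gene, had 24.4, 14.8 and 1.17 CPM in the same 16IC lines and 1.14 to 5.16 CPM in EIC (log2 fold change 2.44, edgeR adjusted p = 0.270). Both genes were lowest within 16IC in 16IC_7391, as Enpp1 was. That line lay inside the EIC range for Entpd3 and Enpp1, but below every EIC line for Nt5e. ENPP1 is also known to bind and restrain the insulin receptor. Of 4 tested genes of the insulin and IGF list, 2 had an unadjusted p under 0.05 and DESeq2 called both, while limma-voom called 0. Insr, the insulin receptor gene, had 72.9, 66.3 and 80.2 CPM in EIC_4026, EIC_NT and EIC_7559 and 129, 192 and 137 CPM in 16IC_1984, 16IC_4982 and 16IC_7391 (log2 fold change 1.06, SE 0.21, 95% interval 0.55 to 1.56, edgeR adjusted p = 0.0590). Every 16IC line was above every EIC line, 16IC_7391 included, and without that line edgeR called Insr (adjusted p = 0.0310) and no other gene of the list. Irs1, an adaptor of that receptor, had 7.53 to 43.9 CPM in EIC and 55.6 to 107 CPM in 16IC (log2 fold change 1.90, SE 0.71, edgeR adjusted p = 0.181). Enpp7, a more distant relative outside the 5 members, had at most 3 counts in any line.

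**Figure D5:**
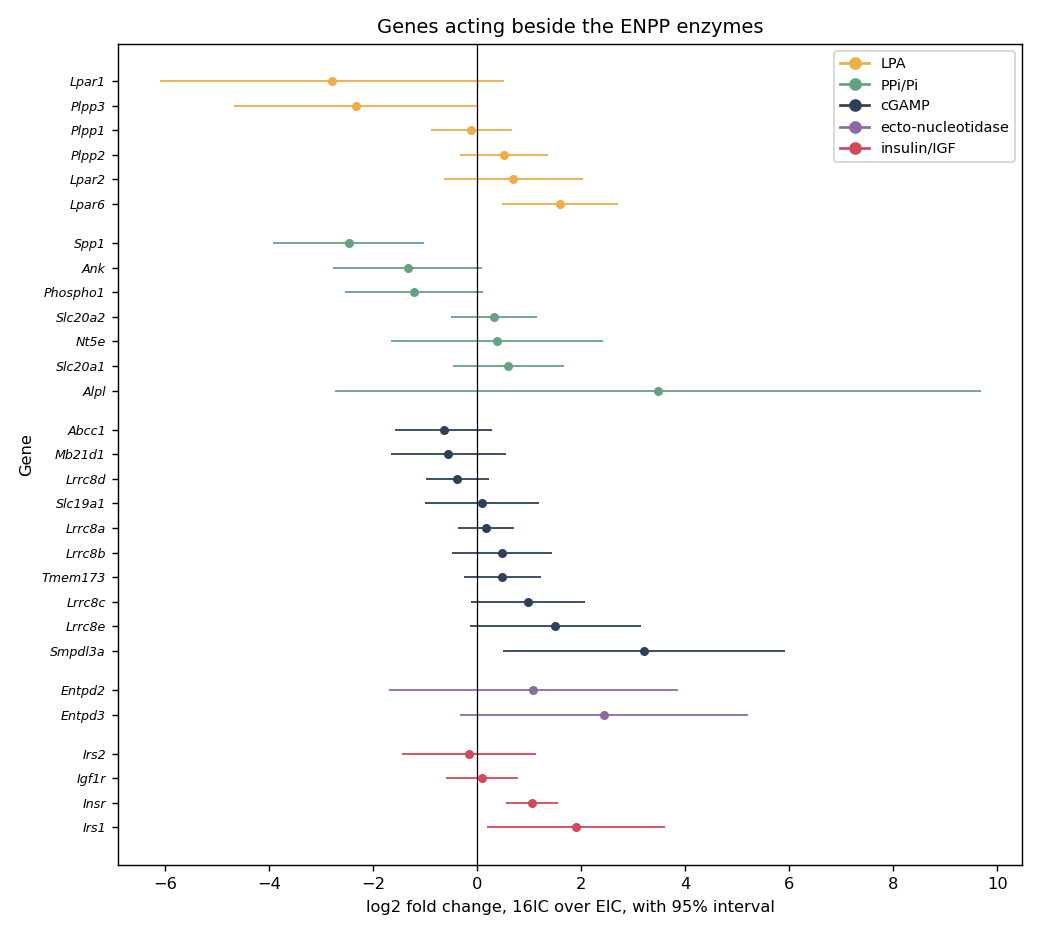
Log2 fold change of 16IC over EIC with its 95% interval for each tested gene (vertical axis) of the 5 lists, coloured by list; a gene in 2 lists is drawn once. Spp1, Lpar6, Smpdl3a, Insr and Irs1 have intervals that leave out 0, without passing the threshold once adjusted over all genes.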

How the data were processed

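Total RNA of 6 lines was sequenced by the authors, and 1 deposited table was read. Trimmomatic, STAR, HTSeq, limma and edgeR, and the builds mm10 and GRCm38, are listed in the submitters' processing notes. Nothing read here states their versions, settings, strandedness or annotation release. The count per gene and line, in whole numbers, is the authors' own and is what the tests used. The table's normalised signal (counts divided by 1 size factor per library) and FPKM columns were made by the authors and were not used for tests. The authors' log2 fold change and p-value columns are quoted where named as theirs, and the tool behind them is not stated.

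Genes were filtered with filterByExpr (minimum count 10), leaving 13698 of 23449. Counts were scaled by TMM and the 2 groups were tested against each other with the quasi-likelihood F test of edgeR 4.0.16 under R 4.3.3. P-values were adjusted by Benjamini-Hochberg over all tested genes, with a threshold of 0.05. SE is the absolute log2 fold change over the square root of F. Alternatives were other scaling factors and filters, DESeq2 1.42.0, limma-voom (limma 3.58.1), a robust fit, leaving out each line, and averaging 16IC_1984 with 16IC_4982. The fits were tested on simulated counts with known changes, as a check of the code. The simulated lines of a group were drawn alike, unlike the real lines, so that check does not show how the fits behave here. Of GENCODE M21, 97.1% of matched genes had the coordinates of the deposited table.

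Named were all members, up to 3 genes of smallest p or every called gene of a list, protein-coding genes within 250 kb, and the 3 genes nearest in pattern with a mean of at least 5 CPM. Alpl, Nt5e, Tmem173, Mb21d1, Epcam, Cdh1, Krt8, Krt18, Krt5, Krt14, Trp63, Kdr, Krt19, Vim, Dcn, Pdgfrb, Csf1r, Cidec, Ptprc, Cdh5, Ms4a2, Sp7, Lrrc8b, Plpp2 and Slc20a1 are named from the lists by choice after their values were seen where they fall outside that rule. The members and lists were chosen with earlier results of these data known.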

Additional observations from a re-analysis of the deposited data

How the results depend on the processing

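Enpp1, Enpp2, Enpp4 and Enpp5 kept their direction in all 14 alternatives run, and Enpp3 did not. DESeq2 called Enpp1 (log2 fold change 4.70, adjusted p = 0.00455) and Enpp2 (-4.66, adjusted p = 4.34e-05). Leaving out each line in turn gave 3.98 to 6.57 for Enpp1, -5.64 to -3.39 for Enpp2, -0.52 to 0.72 for Enpp3, 0.071 to 1.24 for Enpp4 and 0.33 to 1.14 for Enpp5; of these edgeR called Enpp1 without 16IC_7391 and Enpp4 without EIC_NT, and the cause was not tested. The number of genes called, 335 (171 higher, 164 lower), was 223 (107 higher) with no filter on low counts, 2098 with DESeq2 (1133 higher, 965 lower) and 0 with 16IC_1984 and 16IC_4982 averaged (0 higher, 0 lower). It ran from 0 to 1913 when a line was left out, with 0 to 941 higher and 0 to 972 lower: 0 without EIC_4026, EIC_7559 or 16IC_4982, 5 without 16IC_1984 and 1913 without 16IC_7391. Mean CPM of each member moved by less than 1 SD without TMM factors. No paired analysis was possible because the labels give no pairing of EIC lines with 16IC lines. Depth limits Enpp3 most, with at most 28 counts in a line.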
